A study of Basiliscus vittatus and Chrysopelea ornata and Dasypeltis gansi with 10 samples.

Results

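Eukaryotic cells move membrane and cargo between compartments in coated vesicles, which are shaped by a protein coat, cut from the donor membrane, caught by long tethering proteins at the target and fused by SNARE proteins. Clathrin with its AP-1 and AP-2 adaptors serves the trans-Golgi network, endosomes and plasma membrane, coatomer serves the Golgi, the exocyst captures secretory vesicles at the cell surface, and sorting nexins and the WASH complex sort cargo on endosomes. In neurons, including cerebellar Purkinje and granule cells, these routes carry receptors to and from synapses and supply the growing dendrites and axons. The genes described here are the 31 membrane trafficking and sorting genes among the 630 one-to-one orthologues of the table, chosen by words of their protein names such as coatomer, clathrin, AP-1 or AP-2 complex, Golgi, exocyst, dynamin, sorting nexin, WASH complex, trafficking or a word beginning with rab, and leaving out names with ubiquitin, mitochondrial or kinase. By their known roles 11 act in coats and scission, 7 as Golgi tethers or SNARE, 6 in the exocyst and 7 on endosomes and lysosomes. The names were assigned by sequence similarity, so closely related paralogues could have been mistaken for each other.

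Cerebella of young adult animals of 10 squamate species were profiled by RNA sequencing, with 1 column of FPKM values per species. FPKM are fragments mapped to a transcript, scaled by its length and by all mapped fragments. The 6 limbless species were Pseudopus apodus, a legless lizard, with the snakes Chrysopelea ornata and Pantherophis guttatus, all moving by lateral undulation, the snakes Dasypeltis gansi and Python regius with other movements, and the sand boa Eryx colubrinus, a facultative burrower. The 4 quadrupedal species were the terrestrial lizards Pogona vitticeps and Lepidothyris fernandi (Mochlus fernandi in the sample records), the arboreal chameleon Trioceros jacksonii and the facultatively bipedal Basiliscus vittatus. Per the methods sequencing was done in duplicate, but neither how duplicates were combined nor the number of animals behind a column is stated in the sources read, so the spread within species is unknown, and p-values rest on differences among species, to which common ancestry and technical variation contribute. Snakes (5 species) and lizards (5 species) differ from limbless and quadrupedal species only by P. apodus.

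The number of reads behind a value is unknown, and the 630 FPKM values summed to between 6289 in L. fernandi and 15880 in E. colubrinus. This difference in sum is called library scale below. The 630 genes are only a part of each library, and the source of the difference was not tested. Genes were therefore also compared with every library shifted to a common median, called centring below. Markers of Purkinje cells (metabotropic glutamate receptor 1 and inositol 1,4,5-trisphosphate receptor type 1) were detected in every species. Their summed levels were 20.2 to 183.1 FPKM in limbless and 50.29 to 102.6 FPKM in quadrupedal species. The inositol trisphosphate receptor stood at only 1.38 FPKM in P. apodus, with a median of 60.89 FPKM over species. The astroglial markers were fibroblast growth factor receptor 3 and tenascin, and those of the oligodendrocyte lineage tenascin-R and myelin transcription factor 1. P. apodus also had the lowest summed Purkinje cell, astroglial and oligodendrocyte lineage markers. Of these it was lowest only for the inositol trisphosphate receptor, fibroblast growth factor receptor 3 (0.51 FPKM) and myelin transcription factor 1 (1.83 FPKM). Metabotropic glutamate receptor 1 was lowest in P. vitticeps (9.41 FPKM), and tenascin (2.24 FPKM) and tenascin-R (2.09 FPKM) in E. colubrinus. The granule cell markers were reelin and NT-3 growth factor receptor. Summed granule cell, astroglial and oligodendrocyte lineage markers overlapped between the categories, as did those of Purkinje cells, but differed widely among species. A sum can rest mainly on 1 gene, as reelin alone stood at 320.93 FPKM in D. gansi. Granule cell markers summed to 36.28 (C. ornata) to 378.3 FPKM (D. gansi) in limbless and 72.65 to 207.1 FPKM in quadrupedal species. In the same order, the ranges for astroglia were 5.98 to 62.63 and 12.94 to 33.42 FPKM. For the oligodendrocyte lineage they were 6.49 to 71.28 and 8.82 to 63.55 FPKM. Ryanodine receptor 1 is the calcium release channel of skeletal muscle, which Purkinje cells also express. It was at 2.74 to 30.14 FPKM in limbless and 1.3 to 2.75 FPKM in quadrupedal species, overlapping only between P. apodus and B. vittatus. In a whole cerebellum, fewer cells of a type and less RNA per cell cannot be told apart.

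The trafficking genes took a similar share of the summed FPKM of the 630 genes in each species. They held between 3.42% (L. fernandi) and 4.62% (E. colubrinus) of the summed FPKM, with 3.44% to 4.62% in the 6 limbless species (median 3.69%) and 3.42% to 4.29% in the 4 quadrupedal species (median 3.87%), so that the categories overlapped. Their typical level was that of the table as a whole, with a median of mean FPKM of 13.77 for the 31 genes and 14.48 for all 630. E. colubrinus was the highest species for 10 of the 31 genes (32.3%, against 22.7% of all genes) and L. fernandi the lowest for 13 (41.9%, against 31.3%), the libraries with the largest and the smallest sums. P. apodus was lowest for 7 (22.6%, against 21.3% of all genes) and C. ornata for 5 (16.1%, against 9.21%). P. guttatus and P. regius were highest for 6 each (19.4%, against 18.1% and 14.4% of all genes).

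For single genes, with library scale included, highest and lowest species lay 8.22-fold apart at the median of the 31 genes and 10.4-fold apart at that of all 630, and at least 10-fold for 11 of 31 genes, where 50.8% of all genes reached that range. On the log2(FPKM + 1) scale the standard deviation (SD) over species had a median of 0.90 for the trafficking genes, from 0.55 to 1.57, and of 0.94 for all genes. Only 1 of the 310 values stood at exactly 0.5 FPKM, that of golgin subfamily A member 2 in L. fernandi. At this level 30 of the 6300 values of the table accumulate. It equals the expression threshold of the paper, although values down to 0.2 FPKM occur. Whether a value of 0.5 FPKM is a floor or a measurement is not stated in the sources read.

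**Figure D1:**
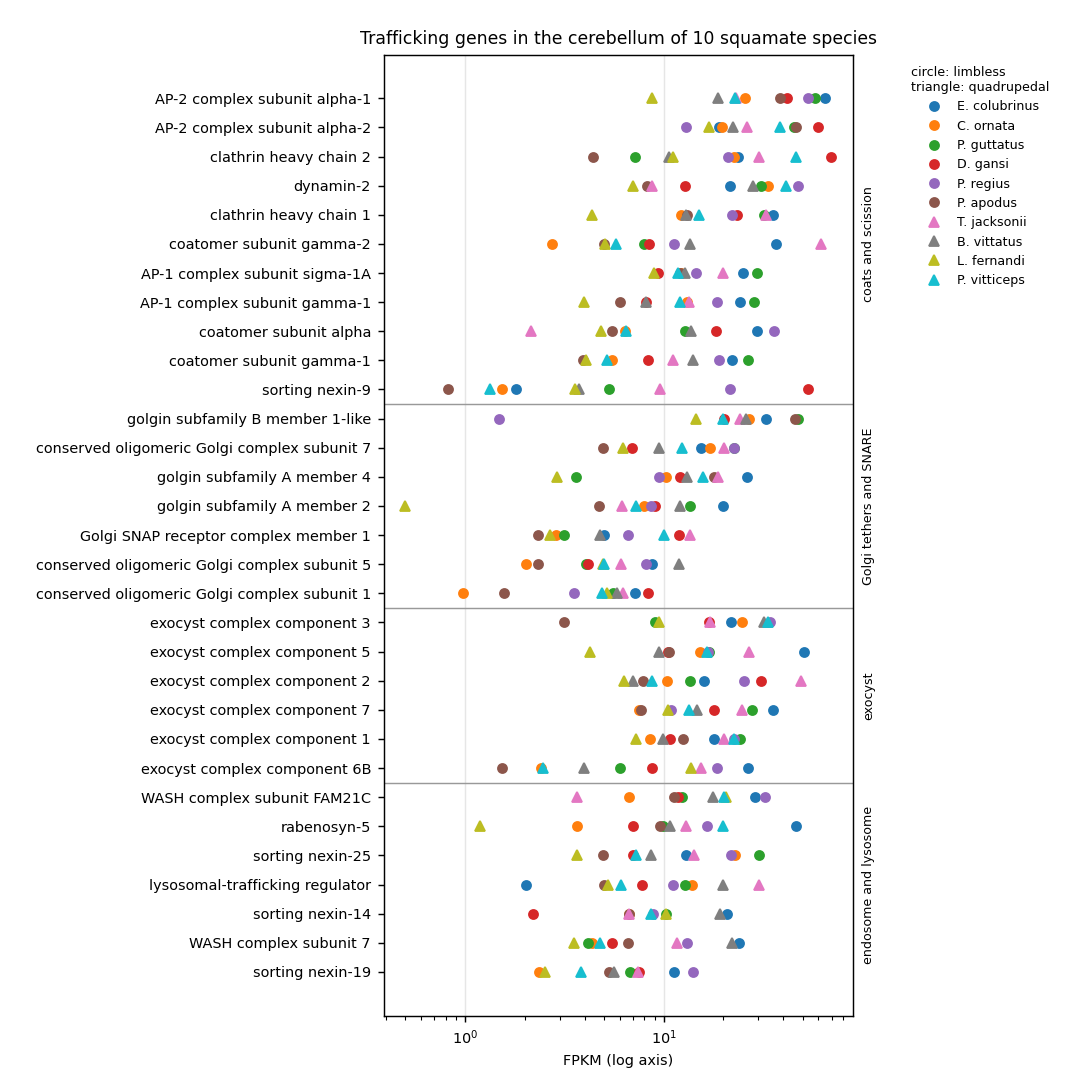
FPKM (log axis) of each of the 31 trafficking genes in the 10 species, grouped by role and ordered by mean level, with circles for limbless and triangles for quadrupedal species. For 20 of 31 genes all species lie within 10-fold, with the categories intermixed in most, and AP-2 complex subunit alpha-1 is the gene in which all limbless species lie above all quadrupedal species.

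The first question was whether trafficking genes differ between limbless and quadrupedal species. None of the 31 passed limma's test on log2(FPKM + 1) at an adjusted p of 0.05, as none of the 630 did (0%). At an unadjusted p under 0.05, 1 of 31 was higher in limbless species (8.25% of all genes) and 0 lower (1.59%), and by an exact rank sum test 1 of 31 and 45 of 630 genes reached that level. The mean was higher in limbless species for 22 of 31 trafficking genes, which equals the 71% of all genes, and for 13 of 31 after centring, against 51.3% of all genes. The median log2 difference was 0.22 for the trafficking genes and 0.35 for all genes, and after centring -0.12 and 0.01.

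AP-2 complex subunit alpha-1 had the smallest p of the 31 genes, without passing. AP-2 recruits clathrin to the plasma membrane for endocytosis, and its large alpha subunit exists in paralogous forms, alpha-1 and alpha-2. AP-2 complex subunit alpha-1 ranged from 25.8 (C. ornata) to 64.65 FPKM (E. colubrinus) in the limbless species, with a median of 47.72 FPKM. In the quadrupedal species it stood at 8.79 FPKM in L. fernandi, 18.76 in B. vittatus, 22.86 in P. vitticeps and 23.12 in T. jacksonii. Every limbless species therefore lay above every quadrupedal one, including the lizard P. apodus at 38.62 FPKM. It was the only such gene of the 31 (3.23%, against 2.7% of all genes) and remained so after centring (1.9% of all genes), and in none of the 31 did all quadrupedal species lie above all limbless ones (0.317% of all genes, 0.952% after centring). The mean was 47.0 ± 14.3 FPKM (SD, n = 6) against 18.4 ± 6.7 FPKM (SD, n = 4). This gave 1.34 (95% interval 0.30 to 2.37) on the log2 scale, which did not pass after adjustment (limma, unadjusted p = 0.0146, adjusted p = 0.284). After centring it was 0.99 (limma, unadjusted p = 0.0183), again the 1 of 31 genes under 0.05 and higher in limbless species, as were 5.87% of all genes. The levels of ryanodine receptor 1 also were at or above 2.74 FPKM in limbless and at or below 2.75 FPKM in quadrupedal species, and its part in this result was not tested.

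Next came coatomer subunit alpha, part of the outer cage of the COPI coat that returns proteins from the Golgi to the endoplasmic reticulum. It stood at 5.47 to 36.09 FPKM in the limbless species (median 15.51). Among the quadrupedal species T. jacksonii had 2.16, L. fernandi 4.86, P. vitticeps 6.45 and B. vittatus 13.72 FPKM. The groups overlapped, since P. apodus, C. ornata (6.39 FPKM) and P. guttatus (12.75 FPKM) lay within the quadrupedal range, and the log2 difference of 1.21 (95% interval -0.07 to 2.50; limma, adjusted p = 0.555) fell to 0.87 after centring.

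Golgin subfamily A member 2, a tether of the cis-Golgi, ranged from 4.73 (P. apodus) to 19.8 FPKM (E. colubrinus), with a median of 8.86 FPKM over the limbless species. The quadrupedal species had 0.5 FPKM (L. fernandi), 6.19 (T. jacksonii), 7.22 (P. vitticeps) and 12.07 (B. vittatus). The groups overlapped, and the log2 difference of 0.88 (standard error 0.60; limma, adjusted p = 0.719) rested largely on L. fernandi, without which it was 0.22.

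The largest difference in the other direction among the 31 genes was that of the lysosomal-trafficking regulator, whose loss in humans enlarges lysosomes and related granules in Chediak-Higashi syndrome. It stood at 2.03 (E. colubrinus) to 13.84 FPKM (C. ornata) among limbless species (median 9.45), and at 5.27 in L. fernandi, 6.07 in P. vitticeps, 19.92 in B. vittatus and 30.12 FPKM in T. jacksonii. The terrestrial lizards thus fell within the limbless range and the chameleon and the basilisk above it. The log2 difference was -0.60 (standard error 0.61, limma, adjusted p = 0.764), or -0.19 without T. jacksonii and -0.95 after centring.

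Of the conserved oligomeric Golgi (COG) complex, a tether for vesicles recycling within the Golgi, subunits 5 and 1 followed by their p. Subunit 5 had 2.02 to 8.7 FPKM in limbless species (median 4.13), and 4.98 (L. fernandi), 5.01 (P. vitticeps), 6.12 (T. jacksonii) and 11.93 FPKM (B. vittatus) in quadrupedal species. Subunit 1 had 0.98 to 8.39 FPKM (median 4.53), and 4.92 (P. vitticeps), 5.2 (L. fernandi), 5.84 (B. vittatus) and 6.23 FPKM (T. jacksonii). Both overlapped between the categories, with log2 differences of -0.50 for subunit 5 (limma, adjusted p = 0.764) and -0.46 for subunit 1 (limma, adjusted p = 0.791). Subunit 5 was at -0.25 without B. vittatus and subunit 1 at -0.20 without C. ornata. After centring they were at -0.84 and -0.80.

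By role, 9 of 11 coat and scission genes, 4 of 7 Golgi genes, 5 of 6 exocyst genes and 4 of 7 endosomal and lysosomal genes had a higher mean in limbless species, where 71% of all genes did. After centring these counts were 7, 1, 2 and 3, beside 51.3% of all genes, and the median log2 difference was 0.16 for coats, -0.32 for Golgi genes, -0.25 for the exocyst and -0.17 for endosomal genes. These medians are descriptions of small groups, and differences between the groups were not tested.

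**Figure D2:**
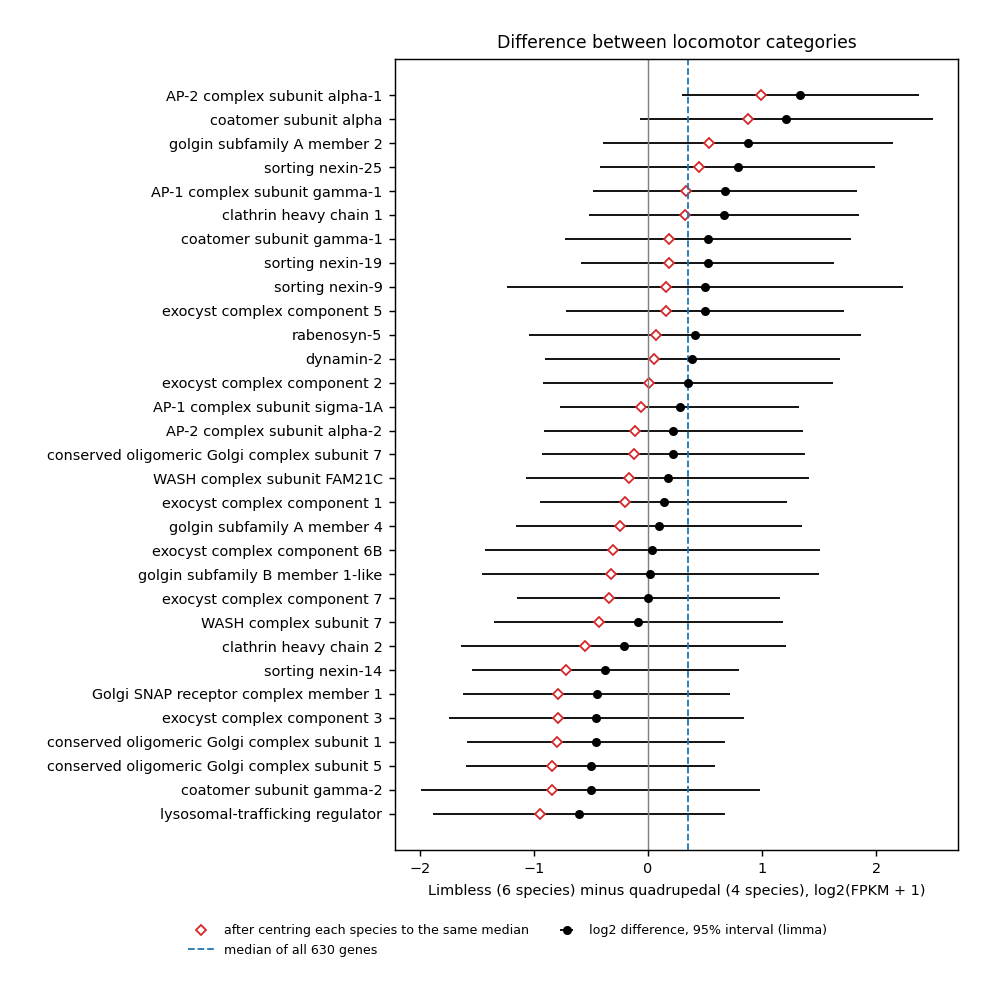
Difference in mean log2(FPKM + 1) between 6 limbless and 4 quadrupedal species for each of the 31 genes, with 95% intervals from limma (black), the centred value (open red) and the median of all 630 genes (dashed, 0.35). The interval of AP-2 complex subunit alpha-1 alone lies above 0, and 18 of 31 centred values are negative.

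Comparing snakes with lizards moves only P. apodus. The mean was higher in snakes for 22 of 31 trafficking genes (80.8% of all genes) and for 13 after centring (48.9% of all genes), and the median log2 difference was 0.42 against 0.56 for all genes. None of the 31 passed limma, as none of the 630 (0%), while 3 had an unadjusted p under 0.05, all higher in snakes (13.3% of all genes), and by the exact rank sum test 1 did, of 59 among the 630 genes. The 3 were coatomer subunit alpha (log2 difference 1.48, 95% interval 0.31 to 2.64; limma, adjusted p = 0.290), AP-2 complex subunit alpha-1 (1.16; limma, adjusted p = 0.332) and sorting nexin-25 (1.16; limma, adjusted p = 0.332). After centring, 0 of the 31 genes had an unadjusted p under 0.05 in either direction (3.65% of all genes higher and 4.13% lower in snakes), and in no trafficking gene did all snakes lie above all lizards (1.9% of all genes, 0.476% after centring) or below them (0%, and 0.317% after centring).

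Paralogues can be compared within 1 library, where the scale of the library cancels. Only the scale cancels, while a paralogue mistaken for the other, or an incompletely assembled transcript, would still change the ratio. AP-2 complex subunit alpha-2 ranged from 13.03 (P. regius) to 59.98 FPKM (D. gansi) in limbless species (median 32.53) and stood at 16.97 (L. fernandi), 22.44 (B. vittatus), 26.17 (T. jacksonii) and 38.67 FPKM (P. vitticeps) in quadrupedal species, with full overlap and a log2 difference of 0.22 (standard error 0.54). The ratio of alpha-1 to alpha-2 was below 1 in all 4 quadrupedal species, at 0.518 in L. fernandi, 0.591 in P. vitticeps, 0.836 in B. vittatus and 0.883 in T. jacksonii. In the limbless species it was 0.698 in D. gansi, 0.837 in P. apodus, 1.27 in P. guttatus, 1.31 in C. ornata, 3.39 in E. colubrinus and 4.11 in P. regius. Alpha-1 thus exceeded alpha-2 in 4 of 5 snakes and in 0 of 5 lizards, with the python and the sand boa far above the rest and D. gansi among the lizards. The mean log2 ratio was 0.63 ± 1.05 (SD, n = 6) in limbless and -0.54 ± 0.38 (SD, n = 4) in quadrupedal species (two-sided exact permutation test, p = 0.0476, adjusted p = 0.143 over 6 tests of 3 pairs by category and lineage), and 0.80 ± 1.07 (SD, n = 5) in snakes against -0.48 ± 0.35 (SD, n = 5) in lizards (exact permutation test, p = 0.0317, adjusted p = 0.143). Neither difference passed after adjustment.

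The gamma subunits of coatomer, which bind cargo and regulators, behaved differently from species to species. Coatomer subunit gamma-1 ranged from 3.94 (P. apodus) to 26.66 FPKM (P. guttatus) in limbless species (median 13.7) and stood at 4.06 (L. fernandi), 5.17 (P. vitticeps), 11.11 (T. jacksonii) and 14.04 FPKM (B. vittatus) in quadrupedal species. Coatomer subunit gamma-2 ranged from 2.73 (C. ornata) to 36.63 FPKM (E. colubrinus) (median 8.21), and stood at 5.05 (L. fernandi), 5.75 (P. vitticeps), 13.53 (B. vittatus) and 61.66 FPKM (T. jacksonii). The gamma-1 to gamma-2 ratio was therefore lowest in the chameleon T. jacksonii, at 0.18, and highest in P. guttatus, at 3.35, with B. vittatus at 1.04 and D. gansi at 0.991. The difference in log2 ratio between categories was 1.12 (exact permutation test, p = 0.162, adjusted p = 0.243), or 0.54 without T. jacksonii, and between snakes and lizards 1.20 (exact permutation test, p = 0.0952, adjusted p = 0.190).

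Clathrin heavy chain 1 forms the triskelia of the clathrin lattice, and clathrin heavy chain 2 is its paralogue, in humans expressed mainly in muscle. Clathrin heavy chain 1 had 12.22 to 35.66 FPKM in limbless species (median 22.74), and 4.34 (L. fernandi), 12.96 (B. vittatus), 14.98 (P. vitticeps) and 32.87 FPKM (T. jacksonii) in quadrupedal species. Clathrin heavy chain 2 had 4.4 (P. apodus) to 69.93 FPKM (D. gansi) (median 21.81), and 10.63 (B. vittatus), 11.2 (L. fernandi), 30.24 (T. jacksonii) and 46.6 FPKM (P. vitticeps). Chain 2 exceeded chain 1 in 4 of the 10 species, namely D. gansi, C. ornata, L. fernandi and P. vitticeps, where the ratio of chain 1 to chain 2 was 0.321 to 0.543. At the other end stood P. guttatus (4.5) and P. apodus (2.98), and neither the categories (difference in log2 ratio 0.97; exact permutation test, p = 0.238, adjusted p = 0.286) nor the lineages (0.28; exact permutation test, p = 0.738, adjusted p = 0.738) separated.

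**Figure D3:**
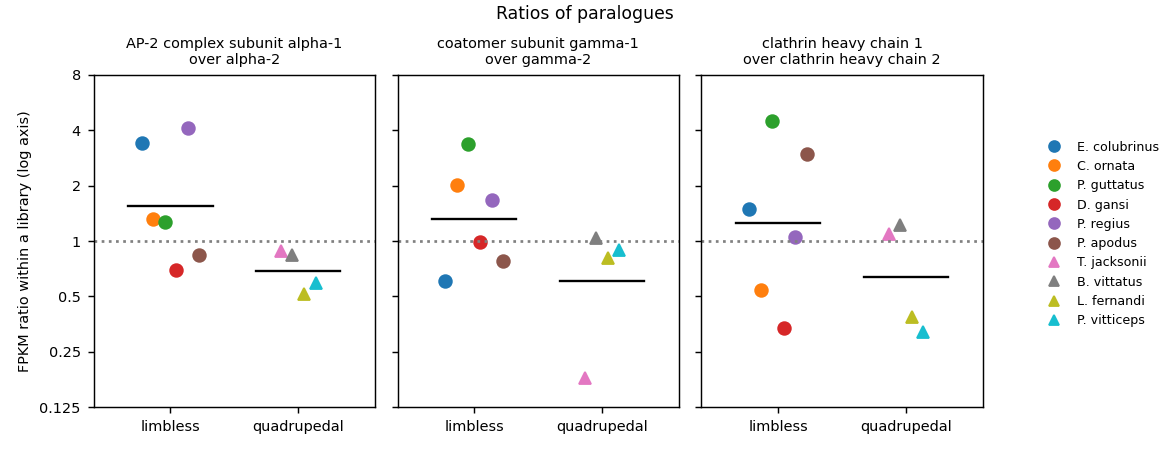
Ratio of FPKM of 2 paralogues within each library (log axis), for AP-2 alpha-1 over alpha-2, coatomer gamma-1 over gamma-2 and clathrin heavy chain 1 over 2, with circles for 6 limbless species, triangles for 4 quadrupedal species and bars for geometric means. The AP-2 ratio is below 1 in all 4 quadrupedal species, and the lowest value of all is the coatomer ratio of T. jacksonii, 0.18.

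Among the other coat genes, sorting nexin-9, which bends membrane and recruits dynamin in endocytosis, varied most of all 31 genes. It stood at 53.41 FPKM in D. gansi and 21.46 FPKM in P. regius, and at 0.82 to 5.29 FPKM in the other limbless species. In quadrupedal species it had 1.34 (P. vitticeps), 3.58 (L. fernandi), 3.76 (B. vittatus) and 9.54 FPKM (T. jacksonii). The 2 highest species are those grouped by the study under other limbless movements. D. gansi and P. regius also had the highest summed Purkinje cell markers (183.1 and 132.4 FPKM) and ryanodine receptor 1 (19.28 and 30.14 FPKM). Of the Purkinje cell markers, the inositol trisphosphate receptor alone stood at 155.74 FPKM in D. gansi. Metabotropic glutamate receptor 1 was instead highest in P. guttatus (30.41 FPKM). D. gansi also had the highest sum of granule cell markers (378.3 FPKM) and P. regius that of oligodendrocyte lineage markers (71.28 FPKM). The highest sum of astroglial markers was in P. guttatus (62.63 FPKM). The part of mode or of cell composition in sorting nexin-9 was not tested. Across the 6 locomotor modes sorting nexin-9 had an unadjusted p of 0.00714 but did not pass (limma F test, adjusted p = 0.346), and none of the 31 or of the 630 genes (0%) did. The others among the 3 trafficking genes with an unadjusted p under 0.05 across modes (10.5% of all genes) were coatomer subunit gamma-2 (limma, adjusted p = 0.368) and coatomer subunit alpha (limma, adjusted p = 0.455). Modes with 1 species contribute no spread to this test.

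AP-1, the adaptor of the trans-Golgi network, held the most even of the 31 genes. AP-1 complex subunit sigma-1A had 9.32 (D. gansi) to 29.55 FPKM (P. guttatus) in limbless species (median 13.38) and 8.93 (L. fernandi), 11.78 (P. vitticeps), 12.78 (B. vittatus) and 19.86 FPKM (T. jacksonii) in quadrupedal species. Its 3.31-fold range gave the smallest SD, 0.55 on the log2 scale. Between categories it differed by 0.28 (standard error 0.50), or by -0.06 once centred, on that scale. AP-1 complex subunit gamma-1 ranged 7.18-fold, from 3.96 (L. fernandi) to 28.43 FPKM (P. guttatus). Dynamin-2, the widely expressed GTPase that cuts vesicles from the membrane, ranged from 7.05 (L. fernandi) to 47.52 FPKM (P. regius).

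Of the Golgi genes, golgin subfamily B member 1-like, a large tether named for giantin, had the highest mean (25.9 FPKM) and the widest gap. It stood at 1.48 FPKM in P. regius, and at 20.21 (D. gansi), 26.82 (C. ornata), 32.76 (E. colubrinus), 45.81 (P. apodus) and 47.65 FPKM (P. guttatus) in the other limbless species. In quadrupedal species it had 14.63 (L. fernandi), 19.89 (P. vitticeps), 24.17 (T. jacksonii) and 25.86 FPKM (B. vittatus). The python alone was low, and P. guttatus and P. apodus alone exceeded 40 FPKM. The log2 difference between categories was 0.02 (standard error 0.70), -0.32 after centring and 0.65 without P. regius. Golgin subfamily A member 4, a tether of the trans-Golgi, ranged from 2.91 (L. fernandi) to 26.2 FPKM (E. colubrinus), COG subunit 7 from 4.94 (P. apodus) to 22.67 FPKM (P. regius), and the Golgi SNAP receptor complex member 1, a SNARE of transport to and within the Golgi, from 2.34 (P. apodus) to 13.65 FPKM (T. jacksonii).

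The exocyst was represented by components 1, 2, 3, 5, 6B and 7, which did not keep a fixed order from species to species. Component 3 had the highest mean (20.2 FPKM). It stood at 3.16 (P. apodus) to 34.4 FPKM (P. regius) among limbless species (median 19.3). Among quadrupedal species it had 9.53 (L. fernandi), 17.2 (T. jacksonii), 31.87 (B. vittatus) and 33.59 FPKM (P. vitticeps). It had a log2 difference of -0.45 (standard error 0.62), which was -0.79 after centring, -0.067 without P. apodus and -0.23 without P. vitticeps. It was the highest of the 6 components in B. vittatus, C. ornata, P. vitticeps and P. regius, whereas component 2, the effector of the GTPase Ral, led in D. gansi and T. jacksonii, component 5 in E. colubrinus, component 7 in P. guttatus, component 1 in P. apodus and component 6B in L. fernandi. Component 6B, of the family that binds Rab11, was the lowest in 7 of the 10 species. The highest component exceeded the lowest by 3.14-fold in P. regius to 13.5-fold in P. vitticeps.

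Exocyst complex component 1, which binds phospholipids of the plasma membrane, was the second most even gene of the 31. It had 8.53 (C. ornata) to 24.16 FPKM (P. guttatus) in limbless species (median 15.2) and 7.3 (L. fernandi), 9.97 (B. vittatus), 20.12 (T. jacksonii) and 22.61 FPKM (P. vitticeps) in quadrupedal species. The log2 difference was 0.14 (standard error 0.52), or -0.20 once centred. Component 5 ranged from 4.28 (L. fernandi) to 50.65 FPKM (E. colubrinus), component 2 from 6.33 (L. fernandi) to 48.98 FPKM (T. jacksonii), component 7 from 7.52 (C. ornata) to 35.57 FPKM (E. colubrinus) and component 6B from 1.53 (P. apodus) to 26.51 FPKM (E. colubrinus). The 3 coatomer subunits lay within 1.04-fold of each other in B. vittatus and within 1.25-fold in L. fernandi and P. vitticeps. In T. jacksonii they lay 28.6-fold apart, where gamma-2 was the highest value and alpha the lowest of that gene in any species. Each species was assembled separately, and how far the assembly shaped such gaps between subunits was not tested.

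**Figure D4:**
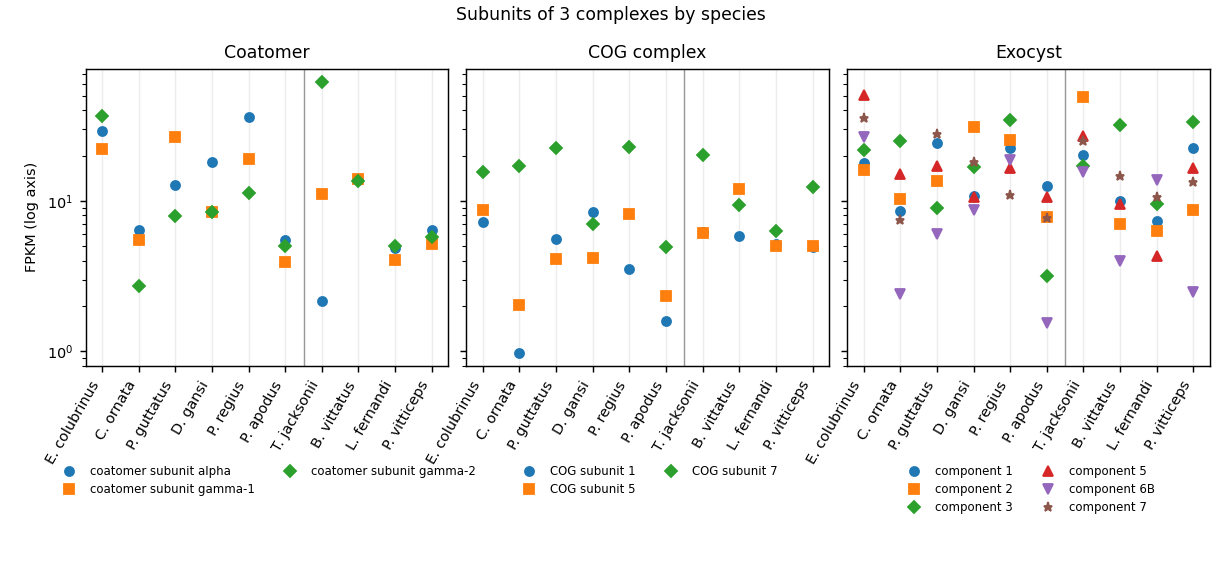
FPKM (log axis) of the subunits of coatomer (3), the COG complex (3) and the exocyst (6) in each species, with limbless species left of the vertical line and quadrupedal species right of it. Coatomer subunits nearly coincide in B. vittatus and lie 28.6-fold apart in T. jacksonii, and exocyst component 6B is the lowest in 7 of 10 species.

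On endosomes, the WASH complex nucleates branched actin, and its FAM21 subunit links it to the retromer. WASH complex subunit FAM21C had the highest mean of its group (16.6 FPKM), with 6.69 to 32.55 FPKM in limbless species (median 12.1) and 3.65 (T. jacksonii), 17.65 (B. vittatus), 20.24 (P. vitticeps) and 20.65 FPKM (L. fernandi) in quadrupedal species. The chameleon was lowest, followed by C. ornata at 6.69 FPKM, and L. fernandi, the lowest library for 13 of the 31 genes, was here the third of 10 species. The log2 difference between categories was 0.17 (standard error 0.59), and -0.36 without T. jacksonii. WASH complex subunit 7 ranged from 3.56 (L. fernandi) to 23.9 FPKM (E. colubrinus).

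Rabenosyn-5, an effector of Rab4 and Rab5 in recycling from early endosomes, ranged 38.9-fold. It had 3.65 (C. ornata) to 46.32 FPKM (E. colubrinus) in limbless species (median 9.77), and 1.19 (L. fernandi), 10.72 (B. vittatus), 12.91 (T. jacksonii) and 19.96 FPKM (P. vitticeps) in quadrupedal species. The extremes were the sand boa and the skink, and the log2 difference of 0.41 (standard error 0.69) became -0.29 without L. fernandi. Sorting nexin-14, whose loss in humans causes a childhood cerebellar ataxia, ranged from 2.21 (D. gansi) to 20.85 FPKM (E. colubrinus), with a log2 difference of -0.37 (standard error 0.56). Its relatives sorting nexin-25 and sorting nexin-19 ranged from 3.66 (L. fernandi) to 30.07 FPKM (P. guttatus) and from 2.37 (C. ornata) to 14.11 FPKM (P. regius).

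A further 30 genes of the table that act in membrane trafficking without matching the name rule were picked by hand. Earlier results of these data were known when they were picked. Among them were adaptor accessory proteins, cargo receptors, small GTPases and phosphoinositide enzymes, and the list is not complete. Of these 21 had a higher and 9 a lower mean in limbless species (71% of all genes were higher), and 13 and 17 after centring (51.3% of all genes were higher). None passed limma's test, and the median log2 difference was 0.31, or -0.03 after centring. The clearest was dnaJ homolog subfamily C member 13, a partner of the WASH complex and retromer on endosomes, with 1.22 (E. colubrinus) to 9.48 FPKM (P. regius) in limbless species (median 3.01) and 11.14 (T. jacksonii), 14.7 (L. fernandi), 27.1 (B. vittatus) and 38.4 FPKM (P. vitticeps) in quadrupedal species. The categories did not overlap, a pattern of 0.317% of all genes in this direction. The log2 difference was -2.27 (standard error 0.55, limma, adjusted p = 0.103), the lowest of all 630 genes. Next in this direction was amphiphysin, a membrane-bending protein of synaptic endocytosis (log2 difference -1.45; limma, adjusted p = 0.621). In the other direction stood hepatocyte growth factor-regulated tyrosine kinase substrate, which sorts ubiquitinated cargo on endosomes (1.63; limma, adjusted p = 0.284), and sortilin-related receptor, a sorting receptor of endosomes and the Golgi (1.77; limma, adjusted p = 0.599).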

How the data were processed

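Per the paper's methods, the authors removed ribosomal RNA, sequenced paired ends, trimmed reads with Trimmomatic, filtered ribosomal sequence with SortMeRNA, assembled each species de novo with Trinity, used OrthoFinder for orthologues and RSEM for abundance. Orthologues above 0.5 FPKM in 1 or more samples were kept. The deposited FPKM values were normalised by the authors for transcript length and mapped reads. No source read here states whether libraries were scaled further against each other. No genome was used, so no coordinates or sequences are given.

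Values were transformed to log2(FPKM + 1), which understates changes of low genes, and fitted across all 630 genes without a filter with limma 3.58.1 in R 4.3.3, with Benjamini-Hochberg adjustment at 0.05. Limma and the rank sum test were run on simulated data. For limma the simulated species were independent, without shared ancestry or library scale differences, so the run does not show how these affect the test. Paralogue ratios were compared with exact permutation tests over species. Tables and figures were made in Python 3.11.15 with scipy 1.17.1. Species follow the sample labels, and locomotor modes the paper. The trafficking genes and all lists were chosen with earlier results of these data known. Quadrupedal values, and the range and median or single values of limbless species, are given for the 3 genes of smallest p in each direction between categories, the 4 of largest and 3 of smallest SD, the gene of highest mean in each role and the 3 paralogue pairs; the other genes are given by their range, with sorting nexin-25 added as 1 of 3 in a count. Of the other trafficking genes the 2 of smallest p in each direction are named. Alternatives were a pseudocount of 0.1, a minimum mean of 5 FPKM, centring, quantile normalisation, an exact rank sum test and leaving out each species.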

Additional observations from a re-analysis of the deposited data

Results flagged for a closer look

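Within the 6 limbless or the 4 quadrupedal species, the gap of the extreme species to its neighbour was compared with the range of the group on the log2(FPKM + 1) scale by Dixon's criterion, for 31 genes in both groups. Of these 62 groups 4 passed the 95% critical value, where chance flags about 1 in 20. Exocyst complex component 2 stood at 48.98 FPKM in T. jacksonii, with the next quadrupedal species at 8.72 FPKM. Exocyst complex component 5 stood at 50.65 FPKM in E. colubrinus, with the next limbless species at 16.99 FPKM. Golgin subfamily B member 1-like stood at 1.48 FPKM in P. regius, with the next limbless species at 20.21 FPKM. WASH complex subunit FAM21C stood at 3.65 FPKM in T. jacksonii, with the next quadrupedal species at 17.65 FPKM.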

How the results depend on the processing

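With 1 value per species the precision is limited by the spread between species, and the depth behind a value is unknown. No paired analysis was possible because every sample is a different species and the labels give no replicate numbers. No trafficking gene passed the threshold by category or lineage under any of 15 alternatives each, or by mode under any of 4. Of the 15, the exact rank sum test could hardly pass with so few species. Its smallest unadjusted p, that of complete separation, was 0.00952 by category and 0.00794 by lineage, before adjustment over 630 genes. Over all genes, the count by category was 4 without D. gansi, 2 without T. jacksonii and 1 without B. vittatus, and by lineage 2, 1 and 1, so that leaving out 1 species gave 0 to 4 and 0 to 2. The number of trafficking genes with a higher mean in limbless species, 22, became 13 after centring, 12 after quantile normalisation and 16 to 23 with 1 species left out (16 without L. fernandi), and that in snakes, 22, became 13, 13 and 21 to 27. The median log2 difference by category, 0.22, turned to -0.12 after centring and -0.16 after quantile normalisation (0.01 to 0.35 with 1 species left out), and that by lineage, 0.42, to -0.16 and -0.11 (0.31 to 0.64). Both scalings remove, by construction, the shift shared by all genes. The median SD of the trafficking genes ran from 0.74 to 0.99.

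Of 251 values of 18 named genes between categories, 26 changed sign, and none passed. With centring and quantile normalisation, golgin subfamily B member 1-like turned to -0.32 and -0.27, AP-1 complex subunit sigma-1A to -0.064 and -0.063, exocyst complex component 1 to -0.20 and -0.23, WASH complex subunit FAM21C to -0.17 and -0.082, and AP-2 complex subunit alpha-2 to -0.12 and -0.24. With a pseudocount of 0.1, golgin subfamily B member 1-like turned to -0.060. With 1 species left out, the log2 difference ran from -0.21 to 0.65 for golgin subfamily B member 1-like, -0.10 to 0.88 for sorting nexin-9 (negative without D. gansi), -0.90 to 0.22 for coatomer subunit gamma-2 (positive without T. jacksonii), -0.29 to 0.80 for rabenosyn-5, -0.13 to 0.37 for exocyst complex component 1, -0.36 to 0.38 for WASH complex subunit FAM21C and -0.60 to 0.17 for clathrin heavy chain 2. AP-2 complex subunit alpha-1 kept its sign over all 14 alternatives, from 0.99 to 1.49 (adjusted p from 0.266 to 0.662). The AP-2 ratio kept its sign too (adjusted p from 0.0952 to 0.254), whereas the clathrin ratio by lineage ran from -0.25 to 0.72 with 1 species left out. Apart from the constructions named, the cause of these changes was not tested.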
